A study of Homo sapiens with 21 samples.

Results

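Among the 124082 circular RNAs (circRNAs) of the count table, 4 that are well read in the normal lung line and scarce or missing in at least one lung cancer line were followed through all 21 libraries. They are hsa_circ_64888, hsa_circ_60454, hsa_circ_20528 and hsa_circ_18923. They were picked from the measured counts, for reads in NL20 and few or none in PC-9 or NCI-H1975, so their levels against NL20 are given as a description without a test. The working name for the set was circRNAs lost in the cancer lines. The counts bear that out in both lines for hsa_circ_64888 alone: hsa_circ_60454 was missing from NCI-H1975 and kept in PC-9, whereas hsa_circ_20528 and hsa_circ_18923 were missing or nearly so from PC-9 and kept, at low and substantial levels, in NCI-H1975.

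A circRNA forms when the spliceosome joins the end of an exon back to the start of the same or an upstream exon. The closed molecule has no free ends, so exonucleases that degrade linear transcripts do not reach it and it tends to be long-lived. Whether a gene yields a given circRNA depends on its transcription and on how its exons are spliced, and circRNA repertoires differ between cell types. The table pairs its circRNA numbers with no gene name, coordinate or sequence. No host gene was therefore assigned and the roles of the 4 circRNAs are not described. For the same reason neither the identity of the cell lines nor the transfected FASN could be checked against marker genes.

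The libraries form 7 groups of 3. NL20 is an immortalized, non-tumorigenic line of bronchial epithelium and served as the normal control. It is the only normal line, so cancer status cannot be told apart from other differences between the lines. Kept, missing, reduced and residual are therefore meant relative to NL20. PC-9 and NCI-H1975 are lung cancer lines with mutant EGFR, the receptor tyrosine kinase that gefitinib and osimertinib inhibit. PC-9 was sequenced as such and as gefitinib-resistant cells treated with 1 µM gefitinib. NCI-H1975 was sequenced as such, as osimertinib-resistant cells treated with 1 µM osimertinib, and after transfection with pCMV6, the plasmid control, or with FASN, the gene of fatty acid synthase. Transfected cells were kept in 50 µg/ml G418, a selection antibiotic. The labels name no drug for the parental cells, so resistance and the presence of the drug cannot be told apart. Plasmid and G418 likewise cannot be told apart in comparisons with untransfected NCI-H1975. All cells grew in the same serum-supplemented medium. The labels do not say whether a resistant or transfected line is a clone or a pool, nor whether a group's 3 libraries stem from different cultures, so that p-values measure the spread between libraries, which may be technical.

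Library totals ran from 95808 to 203079 reads. Osimertinib-resistant replicate 2 stood apart with reads on 15244 distinct circRNAs, against 18494 or more in every other library, and results that rest on it are given with and without it. It has the same total as pCMV6 replicate 1, 110456 reads, but the counts of these libraries differed for 26167 circRNAs, so they are not copies. Levels are given as CPM, the reads of a circRNA as a share of its library's TMM-scaled reads over the 9175 circRNAs tested, in the usual CPM unit. TMM is a scaling that corrects for differences in composition. A floor of 3 reads over the 3 libraries of a group stands for a count of 0, and folds against such a group are lower bounds. Ratios carry 95% exact (Clopper-Pearson) intervals. Both describe counting error alone and treat reads as independent. Amplified reads without molecular identifiers are not independent molecules, so the intervals may be too narrow.

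hsa_circ_64888 was one of the best-read circRNAs of NL20. Its 481, 627 and 534 reads in NL20 replicates 1 to 3 placed it 6th by reads in the summed NL20 libraries, a ranking by reads and not per length. The level was 4184 ± 492 CPM (SD, n = 3), or 0.307% ± 0.0325 of all reads. PC-9 libraries held 3, 3 and 6 reads, at 41.4 ± 26.4 CPM, and no gefitinib-resistant library held any. Over the 12 NCI-H1975 libraries it was read once, in osimertinib-resistant replicate 3. The residual level in PC-9 was 0.990% of the NL20 mean, with single libraries between 0.523% and 1.71%, and the NL20 to PC-9 ratio was 111 (interval 63.2 to 215). Against NL20, the circRNA was at least 474-fold lower in NCI-H1975, at least 369-fold lower in gefitinib-resistant PC-9, at least 338-fold lower in pCMV6 and at least 380-fold lower in FASN cells. The order of levels was NL20, then PC-9, then all other groups, which hold between 0 and 1 read and cannot be ranked. In bulk libraries, fewer cells that carry a circRNA and less of it per cell cannot be told apart.

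hsa_circ_60454 separated the cancer lines. NL20 held 312, 403 and 282 reads, at 2523 ± 253 CPM (SD, n = 3). In PC-9 there were 62, 92 and 52 reads, at 643 ± 26.2 CPM, which is 25.5% of the NL20 mean. Gefitinib-resistant PC-9 held 147, 136 and 175 reads, at 1731 ± 246 CPM or 68.6% of the NL20 mean. None of the 12 NCI-H1975 libraries held a read, and the floor puts their level at or below 0.349% of NL20 in NCI-H1975 and at or below 0.490% in pCMV6 cells, the shallowest group. The NL20 level was thus at least 288-fold above NCI-H1975. The libraries of NL20, gefitinib-resistant PC-9, PC-9 and NCI-H1975 fell in that order without overlap.

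hsa_circ_20528 was read in NCI-H1975 and not in PC-9. NL20 held 148, 193 and 141 reads, at 1221 ± 117 CPM (SD, n = 3), and none of the 6 PC-9 libraries held any. The NL20 level was at least 130-fold above PC-9 and at least 108-fold above gefitinib-resistant PC-9. NCI-H1975 kept a trace in 11 of its 12 libraries. NCI-H1975 held 5, 7 and 14 reads, or 6.09% of the NL20 mean, and osimertinib-resistant cells held 17, 22 and 13, or 15.0% (12.1% without replicate 2). FASN cells held 4, 9 and 5 reads, or 5.24% of the NL20 mean, and pCMV6 cells held 0, 4 and 2, or 2.12%. Osimertinib-resistant libraries all lay above the libraries of the other NCI-H1975 groups, while the ranges of NCI-H1975, FASN and pCMV6 overlapped from one to the next.

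hsa_circ_18923 was the least reduced in NCI-H1975. Its reads in NL20 were 113, 102 and 97, at 797 ± 74.4 CPM (SD, n = 3). PC-9 held none, at least 84.1-fold below NL20, and gefitinib-resistant PC-9 held 2, both in replicate 2, with an NL20 ratio of 105 (interval 28.8 to 872). In NCI-H1975 there were 26, 41 and 31 reads, at 288 ± 66.7 CPM or 36.2% of the NL20 mean. FASN cells held 28, 55 and 32 reads and stood at 51.7% of NL20. Osimertinib-resistant cells held 38, 63 and 29 reads and stood at 57.9%, and pCMV6 cells held 68, 54 and 29 reads and stood at 77.1%. Of the pCMV6 libraries, replicate 1 alone reached the NL20 range, at 769 CPM against 712 CPM in the lowest NL20 library. Replicates 2 and 3 of pCMV6 lay below that range, at 696 and 377 CPM. Of the osimertinib-resistant libraries, replicate 2 alone overlapped NL20, at 723 CPM. Without it the other 2 stood at 41.4% of the NL20 mean and did not overlap NL20. The circRNA was read in all 12 NCI-H1975 libraries. The 4 NCI-H1975 groups overlapped with their neighbours in the order of levels, and all lay above both PC-9 groups.

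**Figure D1:**
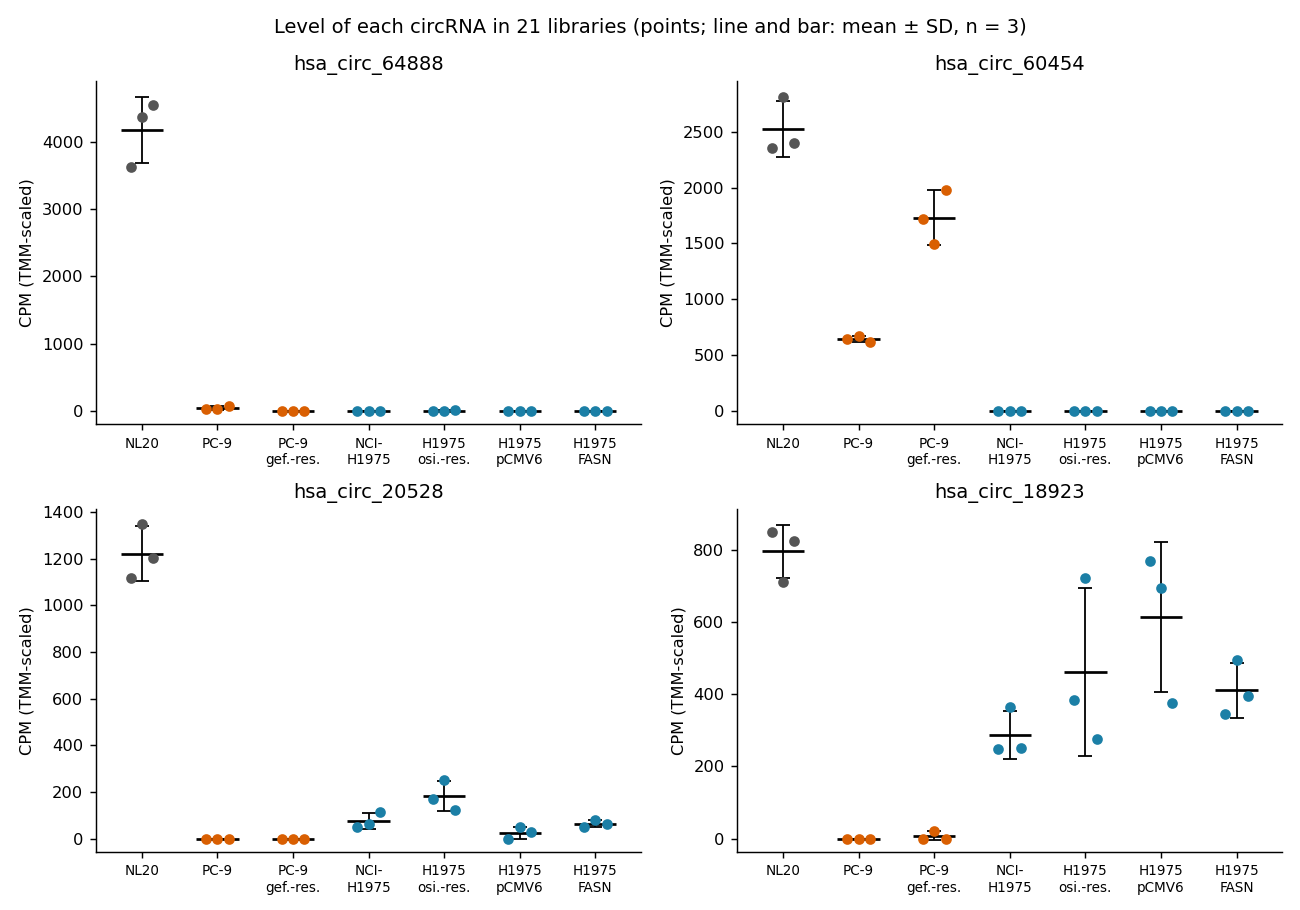
Level of each of the 4 circRNAs in CPM (vertical axes, linear, a scale per panel) in the 7 groups; points are single libraries, the line and bar are mean and SD over 3 libraries. hsa_circ_60454 keeps a level in the 6 PC-9 libraries and has no read in NCI-H1975, while hsa_circ_20528 and hsa_circ_18923 have 0 and 2 reads in PC-9 libraries and are read in 11 and 12 of the 12 NCI-H1975 libraries.

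The NL20 libraries lay above all libraries of each cancer group for each circRNA, except for hsa_circ_18923 in osimertinib-resistant and pCMV6 cells. Without osimertinib-resistant replicate 2, the exception held for pCMV6 cells alone, where it rested on replicate 1. In edgeR's quasi-likelihood test over all 9175 circRNAs tested, 7.75% were called lower in PC-9 than in NL20, 7.81% in NCI-H1975 and 7.73% in gefitinib-resistant PC-9. The percentages were 7.35% for osimertinib-resistant, 7.62% for pCMV6 and 8.08% for FASN cells. These percentages count calls by a test, which is a different measure from libraries that do not overlap. The share of all circRNAs without overlap was not computed, here or for the comparisons with resistance or transfection below. Libraries that do not overlap are therefore a description there too. Because the 4 were picked on this contrast, nothing is read from setting them beside the percentages.

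**Figure D2:**
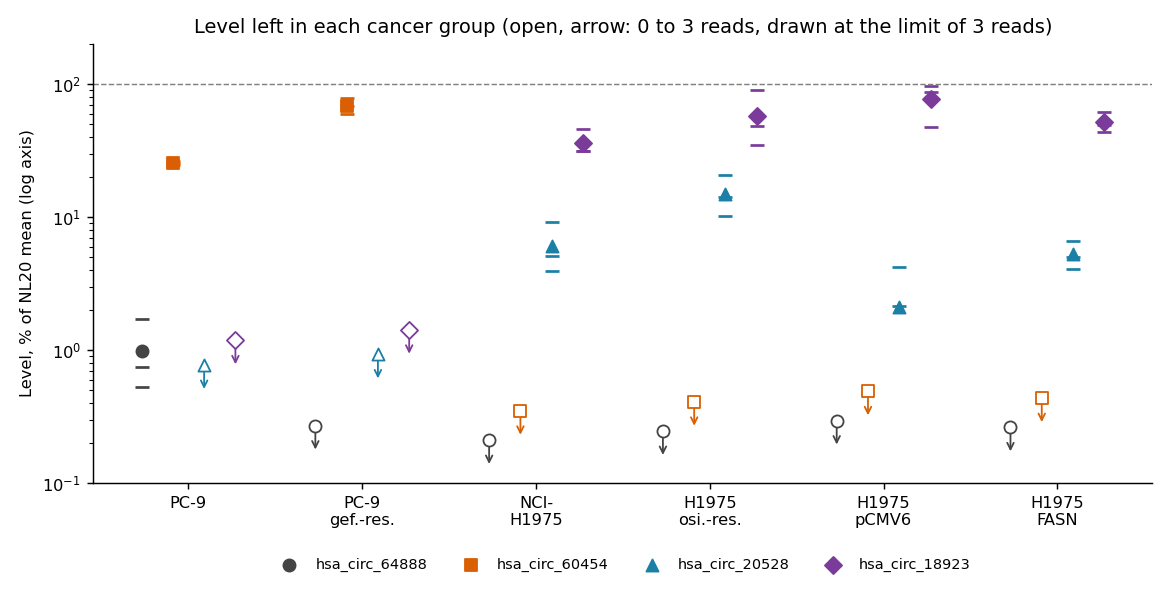
Level in each cancer group as a percentage of the NL20 mean of the same circRNA (log axis); filled symbols are group means, dashes single libraries with reads, and open symbols with arrows are groups with 0 to 3 reads, drawn at the level of 3 reads. Values run from 0.990% for hsa_circ_64888 in PC-9 to 77.1% for hsa_circ_18923 in pCMV6 cells.

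The 3 NL20 libraries lay close together for each circRNA, relative to the distance from most cancer groups. The coefficient of variation of CPM over the 3 NL20 libraries was 11.7% for hsa_circ_64888, 10.0% for hsa_circ_60454, 9.60% for hsa_circ_20528 and 9.34% for hsa_circ_18923. Read counting alone gives 4.27%, 5.49%, 7.89% and 9.81%. For hsa_circ_18923 the coefficient was 50.6% in osimertinib-resistant cells against 15.2% from counting, and 33.9% in pCMV6 cells against 14.1%. It was 23.1% in NCI-H1975 against 17.5% from counting, and 18.5% in FASN cells against 16.2%. For all 4 circRNAs the test's estimate of spread came only from the trend shared by circRNAs of like abundance, and the standard errors of hsa_circ_18923 below do not carry the wider spread of the osimertinib-resistant and pCMV6 libraries.

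Change with gefitinib resistance was compared within PC-9, where hsa_circ_60454 had enough reads on both sides to be followed. hsa_circ_60454 rose from 643 ± 26.2 to 1731 ± 246 CPM (SD, n = 3), a ratio of 2.67 (interval 2.26 to 3.16), with each resistant library above each PC-9 library. Its log2 change was 1.42 ± 0.24 SE (edgeR quasi-likelihood test, adjusted p = 3.78e-06), and it stayed called in each of 13 other fits, with a log2 change between 1.33 and 1.54. hsa_circ_64888 had 12 reads in PC-9 and none in the resistant libraries, at least 3.33-fold lower (edgeR adjusted p = 0.0175). It entered the test through its NL20 reads alone, and with only PC-9 and gefitinib-resistant libraries it did not pass the filter on low counts, so its call is given as a description. The call was lost without PC-9 replicate 3, which held 6 of the 12 reads (edgeR adjusted p = 0.185), and without gefitinib-resistant replicate 1, 2 or 3 (0.125, 0.128 and 0.144). Without the filter on low counts its adjusted p was 0.329. hsa_circ_20528 had no read on either side and hsa_circ_18923 had 2 against 0, which allow no fold. The count of 2 of 4 called, 1 higher and 1 lower, thus includes a circRNA that was tested because it is high in NL20, and was 1 of 4 in the fit of the compared libraries alone. Of all circRNAs tested, 1.35% were called, 0.730% higher and 0.621% lower. The PC-9 libraries took part in the choice of the circRNAs, and the resistant libraries were not used in the contrasts it was made on.

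Osimertinib resistance in NCI-H1975 gave no call among the 4. The NCI-H1975 libraries took part in the choice of the circRNAs, here and in the comparison with pCMV6 below, so these tests are not independent of that choice. hsa_circ_20528 had 52 reads against 26, a ratio of 2.34 (interval 1.43 to 3.90). Its levels were 183 ± 65.1 against 74.4 ± 34.1 CPM (SD, n = 3). All 3 resistant libraries were above all 3 NCI-H1975 libraries, but the nearest lay close together. These were osimertinib-resistant replicate 3, with 13 reads at 124 CPM, and NCI-H1975 replicate 3, with 14 reads at 113 CPM. The log2 difference was 1.24 ± 0.46 SE (edgeR adjusted p = 0.142). Replicate 2, the library that stood apart, had the highest level, and without it the log2 difference was 0.95 (edgeR adjusted p = 0.469). hsa_circ_18923 had 130 reads against 98, at 461 ± 233 and 288 ± 66.7 CPM, with overlapping libraries and a log2 difference of 0.66 ± 0.32 SE (edgeR adjusted p = 0.326). Here 63 of the 130 reads came from replicate 2, and without it the log2 difference was 0.19 (edgeR adjusted p = 0.924). The part of that library's small repertoire in these values was not tested. edgeR called 0 of the 4 and DESeq2 called 0, beside 2.52% of all circRNAs called by edgeR. Only 2 of the 4, hsa_circ_20528 and hsa_circ_18923, had more than 3 reads in either group, so the others could not be called. In edgeR's test these 2 had an unadjusted p under 0.05, as had 13.9% of all circRNAs.

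Transfection left the same circRNAs as the only ones that could be followed, since hsa_circ_64888 and hsa_circ_60454 had no read in NCI-H1975, pCMV6 or FASN libraries. With pCMV6, hsa_circ_18923 stood at 614 ± 208 CPM against 288 ± 66.7 in NCI-H1975 (SD, n = 3), with 151 reads against 98. Each pCMV6 library lay above each NCI-H1975 library. The ratio was 2.16 (interval 1.66 to 2.81) and the log2 difference 1.09 ± 0.32 SE, which missed the threshold (edgeR adjusted p = 0.125). It passed without scaling factors (edgeR adjusted p = 0.0437) and in a fit of the 6 compared libraries alone (0.0499), and without pCMV6 replicate 1 the log2 difference was 0.81 (edgeR adjusted p = 0.622). hsa_circ_20528 had 6 reads against 26, a log2 difference of -1.56 ± 0.66 SE with overlapping libraries (edgeR adjusted p = 0.516). These values put the 2 circRNAs on opposite sides, with no call for either by edgeR or DESeq2, where edgeR called 0.360% of all circRNAs. In edgeR's test 2 of the 4 had an unadjusted p under 0.05, as had 7.87% of all circRNAs.

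FASN against pCMV6 is the comparison in which no library had served to choose the circRNAs. hsa_circ_20528 had 18 reads against 6, a ratio of 2.67 (interval 1.01 to 8.21) and a log2 difference of 1.35 ± 0.70 SE (edgeR adjusted p = 0.651). With only FASN and pCMV6 libraries it did not pass the filter on low counts. It entered the test through reads in other groups, NL20 among them, so its values are given as a description. hsa_circ_18923 stood at 412 ± 76.3 against 614 ± 208 CPM (SD, n = 3), a log2 difference of -0.57 ± 0.31 SE (edgeR adjusted p = 0.678), and pCMV6 replicate 3, at 377 CPM, lay within the FASN range. FASN and pCMV6 libraries overlapped for both circRNAs, none of the 4 had an unadjusted p under 0.05 in edgeR, and DESeq2 called 0. edgeR called 0.316% of all circRNAs. Against NCI-H1975 without plasmid, FASN cells differed by a log2 of -0.21 ± 0.54 SE for hsa_circ_20528 and 0.52 ± 0.32 SE for hsa_circ_18923 (edgeR adjusted p = 1 for both). The former turned to 0.21 without NCI-H1975 replicate 3. In this comparison 0 of 4 had an unadjusted p under 0.05, DESeq2 called 0, and 0% of all circRNAs were called by either tool, with 336 at an unadjusted p under 0.05 in edgeR. FASN and pCMV6 are both compared with the same NCI-H1975 libraries, so these values are not independent. Those NCI-H1975 libraries also took part in the choice of the circRNAs.

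**Figure D3:**
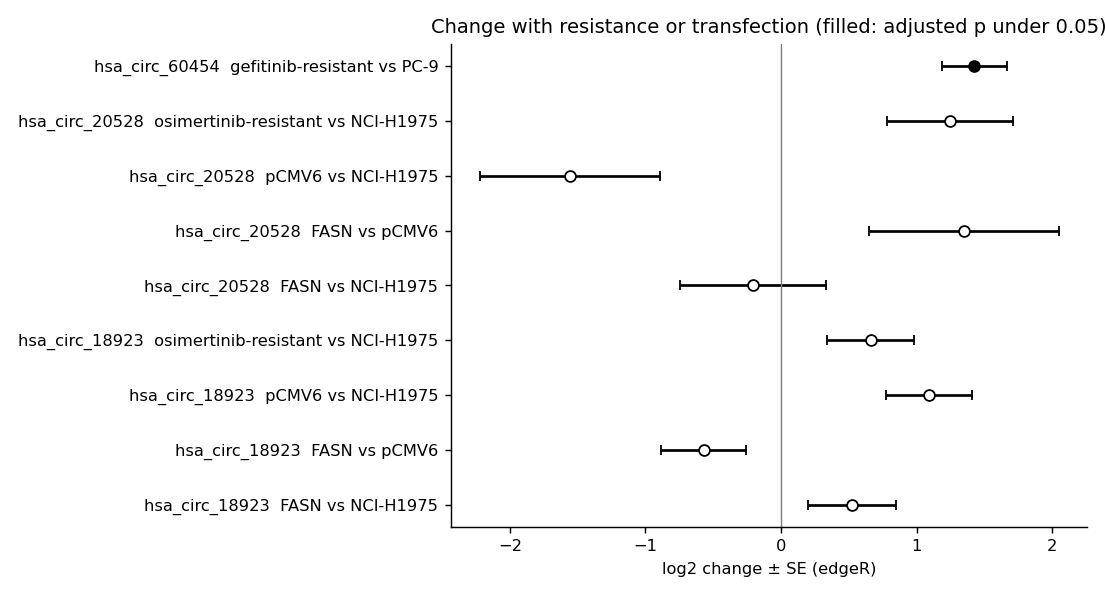
log2 change ± SE from edgeR (horizontal axis) for each circRNA and comparison in which both groups held reads and at least one held more than 3; filled points have an adjusted p under 0.05. hsa_circ_60454 with gefitinib resistance, at 1.42, is the only filled point; hsa_circ_64888 is left out because its resistant libraries held no read.

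Whether the change with resistance differed between the lines was tested as the osimertinib change minus the gefitinib change. None of the 4 was called (edgeR), DESeq2 called 0, and edgeR called 1.77% of all circRNAs. One had an unadjusted p under 0.05, hsa_circ_64888, on 0 and 1 reads in NCI-H1975. No circRNA of the set had more than 3 reads in both lines, so this test could not compare them, and the rise of hsa_circ_60454 has no counterpart to be set against in NCI-H1975.

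The circRNAs numbered within 3 of each of the 4 were examined because numbers run with the order of rows within stretches of the table. Such neighbours need not adjoin, and 1 lay 48 rows away. Numbers also follow the first column in which a circRNA was read, so part of any likeness between neighbours is set by the numbering. None of the 12 neighbours of hsa_circ_64888 and hsa_circ_60454 had a read in pCMV6 or FASN libraries, while all 12 neighbours of hsa_circ_20528 and hsa_circ_18923 had reads in pCMV6. Of the 24 neighbours, 4 had at least 20 reads in NL20, one near each circRNA of the set. hsa_circ_64886 had 45 reads, all in NL20. hsa_circ_20529 had 28 reads in NL20, none in PC-9 and 9 over the NCI-H1975 groups, with too few to pass the filter. hsa_circ_18922 had 38 reads in NL20, 2 in gefitinib-resistant PC-9, and 11, 15, 19 and 16 in NCI-H1975, osimertinib-resistant, pCMV6 and FASN cells. Its share of the reads of hsa_circ_18922 and hsa_circ_18923 together lay between 10.1% and 12.2% in NL20 and the 4 NCI-H1975 groups, with overlapping 95% exact intervals.

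hsa_circ_60453, in the row before hsa_circ_60454, moved with it in PC-9. It had 47, 83 and 63 reads in NL20, 6, 14 and 5 in PC-9, 30, 34 and 31 in gefitinib-resistant PC-9, and none in NCI-H1975. The level rose from 74.5 ± 23.9 to 358 ± 12.4 CPM (SD, n = 3) with gefitinib resistance, with no overlap between libraries and a ratio of 4.56 (interval 2.91 to 7.40). The log2 change was 2.21 ± 0.54 SE (edgeR adjusted p = 0.00705), which was lost without PC-9 replicate 1 (0.0835), without PC-9 replicate 3 (0.0839) and without the filter on low counts (0.324). Its share of the reads of both was 16.2% in NL20 (95% exact interval 14.2 to 18.4), 17.2% in gefitinib-resistant PC-9 (14.1 to 20.6) and 10.8% in PC-9 (7.13 to 15.6). By library the share was 8.82%, 13.2% and 8.77% in PC-9 and 16.9%, 20.0% and 15.0% in gefitinib-resistant PC-9, so the resistant libraries all lay above the PC-9 libraries. The difference in share was not tested, since 3 libraries against 3 cannot give an exact permutation p below 0.1 (two-sided).

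**Figure D4:**
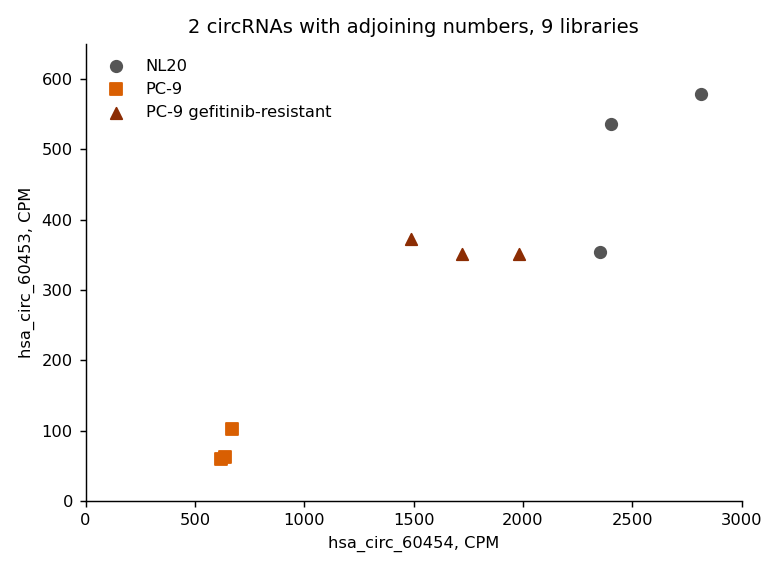
Level of hsa_circ_60453 against hsa_circ_60454 in CPM (both axes linear) in the 9 libraries of NL20, PC-9 and gefitinib-resistant PC-9, one point per library. PC-9 libraries lie lowest on both axes, and the resistant libraries lie between them and NL20 for hsa_circ_60454.

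Likeness over all 21 libraries was measured as Pearson's r of log2 CPM against 9171 other circRNAs, as a description in which cell line is the main thing the points share. Nearest to hsa_circ_64888 were hsa_circ_64469 and hsa_circ_59504 (r = 0.98 for both), with 295 and 55 reads in NL20 and none elsewhere. hsa_circ_60454 was most like hsa_circ_61198 (r = 0.99), with 89 reads in NL20, 38 in PC-9 and 58 in gefitinib-resistant PC-9, and like hsa_circ_63908 (r = 0.98). hsa_circ_20528 had hsa_circ_7493 (r = 0.94) and hsa_circ_18919 (r = 0.92) nearest. The latter had 277 reads in NL20, 24 in NCI-H1975 and 80 in osimertinib-resistant cells. hsa_circ_18923 was most like hsa_circ_3832 (r = 0.94) and hsa_circ_1957 (r = 0.93). Within the set, r was lowest between hsa_circ_60454 and hsa_circ_18923, at -0.50, and highest between hsa_circ_64888 and hsa_circ_20528, at 0.73.

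Absence from a cancer line was rare among circRNAs well read in NL20. Of 772 circRNAs with at least 100 reads in NL20, 753 (97.5%) had more than 3 reads in both the 6 PC-9 and the 12 NCI-H1975 libraries. Another 9 had 3 or fewer reads in PC-9 and more in NCI-H1975, hsa_circ_20528 and hsa_circ_18923 among them. A further 6 had 3 or fewer in NCI-H1975 and more in PC-9, among them hsa_circ_60454 and hsa_circ_64888, the latter with 12 reads in PC-9. The remaining 4 had no read in any of the 18 cancer libraries, and hsa_circ_64469, with 295 reads, was the best read of these in NL20. Of the 10 with no read in PC-9, hsa_circ_20528 had the most reads in NL20, as did hsa_circ_60454 of the 7 with no read in NCI-H1975. The median of the 772 stood at 69.8% of its NL20 share of reads in PC-9 and at 69.8% in NCI-H1975. hsa_circ_64888 stood at 0.505% and 0.0216%, the latter from 1 read over the 12 NCI-H1975 libraries, too few to fix a level. In the line that kept them, hsa_circ_60454 stood at 46.0% (PC-9), and hsa_circ_20528 and hsa_circ_18923 at 7.51% and 56.2% (NCI-H1975). The quartiles of the 772 were 42.0% and 109% in PC-9, and 38.6% and 106% in NCI-H1975. hsa_circ_60454 and hsa_circ_18923 thus lay within them in those lines. The minimum of 100 reads was set after the values were seen. Because the 772 were chosen by their NL20 reads, the choice itself can lower their percentages of NL20. How far it did was not tested.

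**Figure D5:**
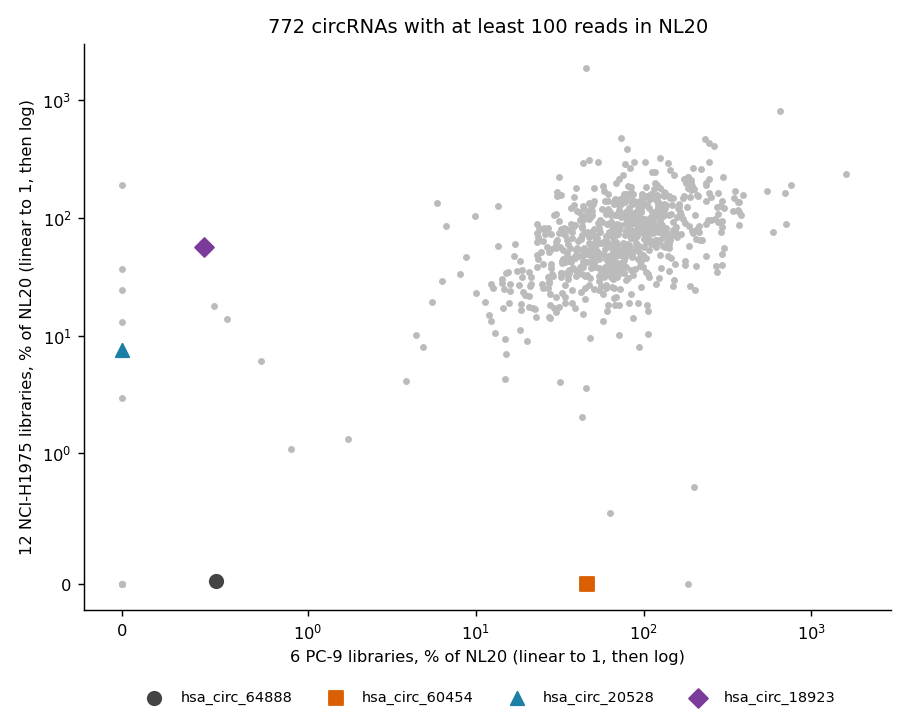
The 772 circRNAs with at least 100 reads in NL20, by their share of reads in the 6 PC-9 libraries (horizontal) and the 12 NCI-H1975 libraries (vertical), each as a percentage of the share in NL20; axes are linear to 1 and then logarithmic. The cloud lies around 69.8% on both axes, the 4 coloured circRNAs lie at its edges, and the grey point at the origin stands for 4 circRNAs.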

How the data were processed

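The authors deposited 1 table of raw read counts, with a row per circRNA. Per the submitters' processing notes, the build was hg38 and the tools were HISAT2 and DESeq2; which program called the circRNAs is not given in the sources used here. All 21 columns could be tied to a sample through their names. Analysis used R 4.3.3, edgeR 4.0.16, DESeq2 1.42.0 and Python 3.11.15. filterByExpr (minimum count 5, minimum total 15) kept 9175 circRNAs (7.39%), which held 73.6% to 79.3% of a library's reads; the 4 circRNAs passed, for which their NL20 reads were enough. One edgeR quasi-likelihood model with a mean per group was fitted to all 21 libraries with TMM scaling, and p-values were adjusted by Benjamini and Hochberg over all circRNAs tested, with a call under 0.05. A prior count of 2 entered log2 CPM. The SE is the log2 change over the square root of its F statistic. Alternatives were DESeq2, other scaling and filters, a replicate block, the compared libraries alone, and leaving out each library. The code was tested on simulated data. The 4 circRNAs, the lists and the alternatives were chosen with earlier results of these data known. Named circRNAs are the 4, the 2 most like each, and numbered neighbours with at least 20 reads in NL20.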

Additional observations from a re-analysis of the deposited data

How the results depend on the processing

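Of the 4 circRNAs, 2 were called with gefitinib resistance, and 1 (hsa_circ_60454) without the filter on low counts or in a fit of the compared libraries alone, where hsa_circ_64888 did not pass the filter; with a library left out the number lay between 1 and 2. For pCMV6 against NCI-H1975 it was 0, and 1 (hsa_circ_18923) without scaling factors or with the compared libraries alone. In the other comparisons it stayed at 0 in every alternative. Within NCI-H1975, however, hsa_circ_64888 and hsa_circ_60454 had too few reads to be called. hsa_circ_20528 did not pass the filter with FASN and pCMV6 libraries alone. The log2 difference of hsa_circ_20528 between FASN and NCI-H1975 turned to 0.21 without NCI-H1975 replicate 3 (range with a library left out -0.44 to 0.21), and that of hsa_circ_18922 between FASN and pCMV6 from -0.41 to 0.16 without pCMV6 replicate 2 (range -0.67 to 0.16); neither was called. Over all circRNAs, calls without the filter fell from 124 to 16 for gefitinib resistance, from 231 to 53 for osimertinib resistance, from 33 to 12 for pCMV6, from 29 to 8 for FASN against pCMV6 and from 162 to 21 for the difference between resistance changes. For gefitinib resistance DESeq2 called 199 and the compared libraries alone 233. Leaving out a library gave 48 to 72, 115 to 176, 9 to 21, 14 to 20 and 79 to 141 in the order above, and 0 to 1 for FASN against NCI-H1975, where the 1 came without NCI-H1975 replicate 2. With no scaling factors, 14 of 30 calls for FASN against pCMV6 were higher, against 18 of 29; the pCMV6 split went from 11 of 33 to 15 of 35. Libraries with the same replicate number showed no clear pairing, with correlations of deviations between -0.025 and 0.034. Most circRNAs have few reads, so counting error could hide a pairing, and this check cannot exclude it. With the replicate block, hsa_circ_60454 had a log2 change of 1.42 and 111 circRNAs were called for gefitinib resistance; the block changed no call among the 4. NL20 levels as CPM of all deposited reads were lower, at 3071, 1850, 896 and 587 for hsa_circ_64888, hsa_circ_60454, hsa_circ_20528 and hsa_circ_18923. Few reads limit what the tests of hsa_circ_64888 (12 or fewer per cancer group) and hsa_circ_20528 (52 or fewer) can detect. The levels without osimertinib-resistant replicate 2 were added after seeing the data.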
